A study of Mus musculus with 6 samples.

Results

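The genes of the complement system were examined in auditory nerve RNA from mice with and without a Vcan knockout. The set was a fixed list of 39 gene symbols for complement components, receptors and regulators, with both mouse Cd59 genes, and all 39 were found among the 24062 symbols of the deposited count table. The nerves came from young adult mice labelled C57BL/6, either wildtype (3 libraries) or Vcan knockout (3 libraries), and the submitters' design text gives C57BL/6J for the wildtype. Each library held total RNA of the nerves dissected from both cochleae of 1 mouse. The labels give no allele, promoter or Cre driver for the knockout, nor its breeding history, so the effect of the knockout and any difference in strain background around single genes cannot be told apart.

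Complement is a cascade of plasma and tissue proteins that marks targets with fragments of C3 and C4 and can end in a membrane pore. It is started by C1q with its proteases C1r and C1s (classical pathway), by lectins with the MASP proteases (lectin pathway), or by slow turnover of C3 amplified through factors B, D and properdin (alternative pathway). Host cells hold it back with inhibitors: CD55, CD46 and Crry act at the C3 step, and CD59 blocks the assembly of the terminal pore. In nervous tissue, microglia and macrophages are the main makers of C1q, which can tag synapses and debris for removal.

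Library totals ran from 74530860 to 92513887 counts. Markers of neurons (summed level 5117 to 10190 CPM, counts scaled to library size with TMM factors) and of Schwann cells (4820 to 7514 CPM) were abundant in all 6 libraries. Of 5 hepatocyte markers 4 were under 1 CPM in every library, Alb among them. Vcan itself stood at 8.37, 9.61 and 7.32 CPM in wildtype libraries, against 5.44, 2.70 and 2.88 CPM in knockout libraries, with no overlap (log2 fold change −1.20, SE 0.32). It passed in DESeq2 (adjusted p = 0.0342) and not in edgeR (adjusted p = 0.558). The labels do not say which exons were deleted. In bulk tissue, fewer cells of a type and less RNA per cell cannot be told apart. Nothing in the labels says whether the 3 libraries of a genotype came from separate litters or preparation days, so p-values measure the spread between these mice only. The running numbers in the library names fall in separate ranges for wildtype and knockout, and what they record is not given. Any difference in handling that goes with these numbers cannot be told apart from genotype.

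The sequences that bear on the results are the stretches upstream of the Cd59a and Cd59b starts, neighbours of which Cd59a passed the edgeR test and Cd59b the DESeq2 test, and of C1qb and C1qc, which lie beside each other and had lower values in knockout nerve that passed neither test. Each comes from the 250 bases before a RefSeq start (GRCm38.p6, the assembly behind mm10) and was shortened where needed so that it holds no annotated exon of its gene. They lie at chr2:104095551-104095752 (plus strand) for Cd59a, chr2:104070816-104071009 (plus strand) for Cd59b, chr4:136886201-136886450 (minus strand) for C1qb and chr4:136893066-136893164 (minus strand) for C1qc. The Cd59b stretch lies in an intron of transcripts that start farther upstream. Capitals mark matches on either strand to a PU box, the motif of the myeloid transcription factor PU.1, searched for here as GAGGAA. The windows were also searched for the GC box of Sp family factors, spelled GGGCGG, and for the core promoter element known as the TATA box, spelled TATAAA, and no stretch shown held either.
Cd59a: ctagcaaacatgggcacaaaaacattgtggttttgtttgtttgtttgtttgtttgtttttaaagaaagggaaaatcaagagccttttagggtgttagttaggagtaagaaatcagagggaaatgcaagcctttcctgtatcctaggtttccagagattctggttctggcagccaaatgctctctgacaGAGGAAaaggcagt
Cd59b: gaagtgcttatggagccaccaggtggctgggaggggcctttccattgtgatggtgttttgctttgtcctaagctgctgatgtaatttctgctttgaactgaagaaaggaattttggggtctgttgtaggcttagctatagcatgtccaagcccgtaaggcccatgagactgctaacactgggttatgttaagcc
C1qb: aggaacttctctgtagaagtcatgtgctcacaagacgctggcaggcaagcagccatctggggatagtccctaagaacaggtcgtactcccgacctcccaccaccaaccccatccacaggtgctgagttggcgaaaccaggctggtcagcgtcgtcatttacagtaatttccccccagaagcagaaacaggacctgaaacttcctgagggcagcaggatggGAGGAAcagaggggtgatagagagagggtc
C1qc: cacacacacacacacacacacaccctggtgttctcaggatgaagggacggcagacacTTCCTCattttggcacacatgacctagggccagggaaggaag
Over the full 250 bases, the windows of Cd59a and Cd59b were 49.3% identical when aligned end to end, within the 45.1% to 51.6% that Cd59a shared with those of 24 other complement genes, and their longest common run was 8 bases. A PU box lay in the Cd59a, C1qb and C1qc stretches, and the Cd59b stretch held none. Such a match is common: 6 of the 28 windows of complement genes held a PU box (21.4%), against 23.3% of all 32851 windows of 250 bases in the RefSeq table. GC boxes were in 21.4% and TATA boxes in 10.7% of the 28 windows, against 32.7% and 12.4% of all. RefSeq windows were found for 26 of the 39 genes, some with more than 1 start.

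Across the cascade, the difference that passed the test was in Cd59a, whose transcript level fell 3.21-fold in knockout nerve. Of the 39 genes, 35 passed the filter on low counts and were tested; Cfd, C6, C4bp and Vsig4 did not. Cd59a alone passed at an adjusted p under 0.05 (edgeR's quasi-likelihood test, adjusted by Benjamini-Hochberg over 16722 genes), which makes 1 of 35, where 0.138% of all genes tested passed in either direction and 0.0718% passed as lower. In DESeq2, whose calls were more numerous (1.36% of genes), 3 passed: Cd59a and Cd59b as lower and Masp2 as higher. The authors' deposited table holds the same 3 under 0.05 (adjusted p = 7.42e-28, 0.000289 and 0.00172), against 1.34% of its genes, and was made with DESeq2 on the same counts. The median log2 fold change of the 35 genes was −0.16 against −0.01 for all genes tested, and 23 were lower and 12 higher (65.7% lower, against 51.1% of all genes). The groups did not overlap for 7 of the 35 (20.0%, against 10.3% of all genes): Cd59a, Cd59b, C1qb, C1qc and C5ar1 were lower, Masp2 and Fcna higher. The same 7 were the ones with an unadjusted edgeR p under 0.05, against 5.20% of all genes. C1qb and C1qc, like Cd59a and Cd59b, are neighbours on a chromosome, so these 7 do not count as separate observations.

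**Figure D1:**
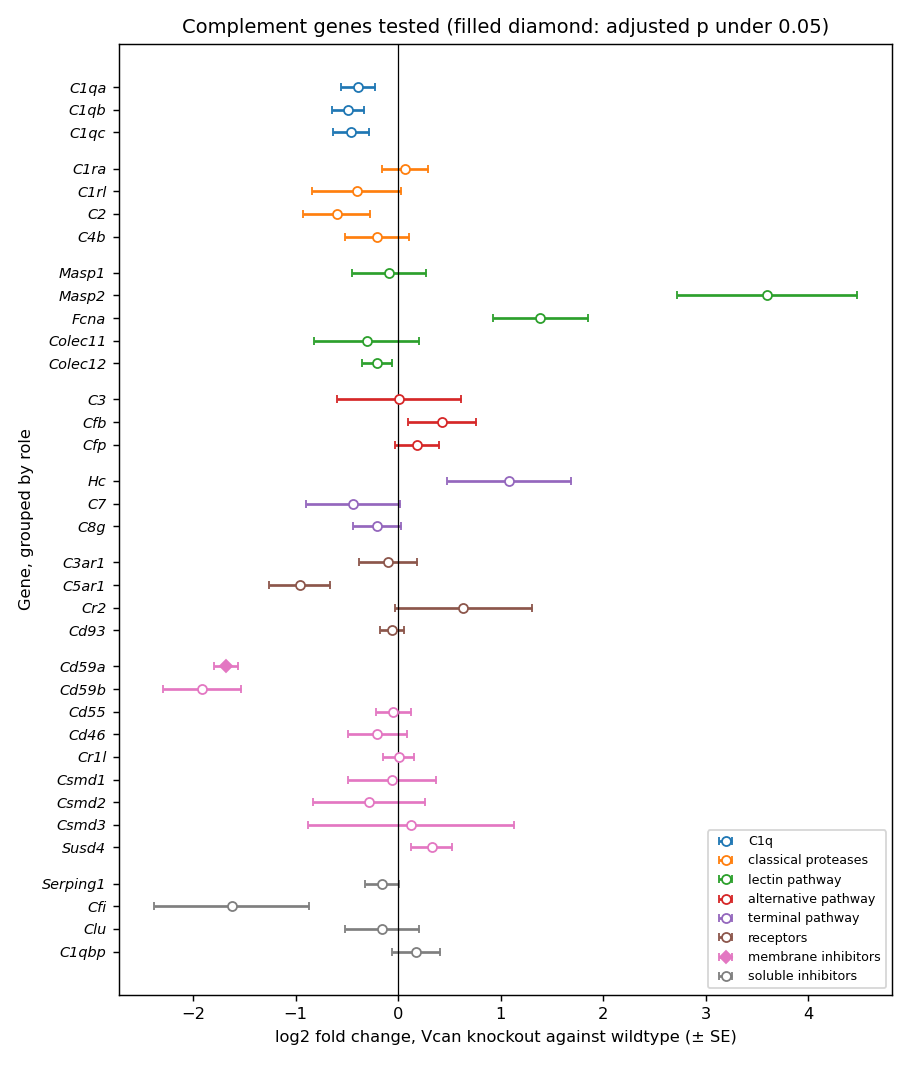
The log2 fold change of knockout against wildtype nerve (x axis, with its standard error) for the 35 complement genes tested, grouped by role on the y axis; a filled diamond marks an adjusted p under 0.05. Cd59a (−1.68) has the only filled symbol, Cd59b (−1.92) lies beside it with a wider error, Masp2 (3.60) stands farthest to the right, and the other inhibitors except Cfi (−1.62) lie near 0.

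Cd59a encodes the main mouse form of CD59, a lipid-anchored surface protein that stops C9 from completing the membrane pore. The gene (identifier 12509) lies on chromosome 2 at 104095753 to 104115410 (GRCm38). Its level was 98.4, 111 and 106 CPM in wildtype nerve, compared with 33.4, 33.7 and 31.4 CPM in knockout nerve. The lowest wildtype library was thus far above the highest knockout library, and the 3 libraries of each genotype lay close together (105 ± 6.44 and 32.8 ± 1.24 CPM, SD, n = 3). The log2 fold change was −1.68 (SE 0.12, edgeR adjusted p = 0.00806). Its size hardly moved when any 1 library was left out (−1.73 to −1.64), but the call was lost without wildtype replicate 2 (adjusted p = 0.0629), knockout replicate 2 (0.0746) or knockout replicate 3 (0.0815). The summed markers of Schwann cells (4820 to 7514 and 5204 to 7203 CPM) and of neurons (5117 to 10190 and 8620 to 9223 CPM) overlapped between the genotypes, while those of fibroblasts and meninges were lower in knockout nerve (1969 to 2140 against 2213 to 2585 CPM, 9 of 10 genes lower, none called) and those of endothelial cells higher. Astrocyte markers were lower for 10 of 10 genes (median log2 fold change −0.72, 5 with an unadjusted p under 0.05, 2 called in DESeq2 and none in edgeR), and their sums overlapped (1986 to 4623 in wildtype, 1438 to 2651 CPM in knockout). Oligodendrocyte markers were lower for 7 of 8 genes (median −0.60, 3 with an unadjusted p under 0.05, 1 called in DESeq2 and none in edgeR), and their sums overlapped too (3396 to 6754 in wildtype, 2864 to 4630 CPM in knockout). The part of cell makeup in the Cd59a level was not tested.

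Cd59b, the second mouse CD59 gene and known mainly from testis, lies 26.0 kb upstream, from 104069781 to 104085790 on chromosome 2. Its counts were far lower, at 2.41, 2.46 and 4.47 CPM in wildtype libraries, against 1.05, 0.791 and 0.627 CPM in knockout libraries. Every knockout library was again below every wildtype library. The log2 fold change of −1.92 (SE 0.38) was no smaller than that of Cd59a but did not pass in edgeR (adjusted p = 0.273), while it passed in DESeq2 (adjusted p = 0.000297). The ratio of Cd59a to Cd59b CPM was 40.8, 45.2 and 23.8 in wildtype and 31.7, 42.6 and 50.1 in knockout libraries, so the ratios overlapped (exact permutation test, 2-sided, p = 0.60). Part of the sequence is common to both genes: 9.37% of the 50-base stretches of the longest Cd59b transcript also occur in Cd59a, with a longest identical run of 104 bases, and how reads that match both were counted is not given in the sources used here. Counted as 1 gene, Cd59a and Cd59b together gave −1.69 (edgeR adjusted p = 0.00806). Cd59a held 27286 counts over the wildtype libraries and Cd59b 804, so this sum could only follow Cd59a.

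The other genes around the pair showed no common direction. Of 23 other genes tested within 1 Mb of Cd59a, 12 lay above 0 and 11 below, around a median of 0.03 on the log2 scale. None passed in edgeR (against 0.138% of all genes), while 3 had an unadjusted p under 0.05 (against 5.20% of all genes). DESeq2 called 2 of the 23 (against 1.36% of all genes). These were Cd59b as lower and Ehf, an epithelial transcription factor gene, as higher (log2 fold change 1.60, SE 0.35, edgeR adjusted p = 0.314). Lmo2, a transcription regulator of blood and vessel cells, was the third gene under the unadjusted threshold, at 0.49 (SE 0.20). Fbxo3, the next gene upstream of the pair that was tested, was at 150.9, 153.1 and 143.5 CPM in wildtype nerve. In knockout nerve it was at 134.2, 137.8 and 135.7 CPM, with no overlap (log2 fold change −0.13, SE 0.11). Ehf, Lmo2 and Fbxo3 were named after their values were seen.

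**Figure D2:**
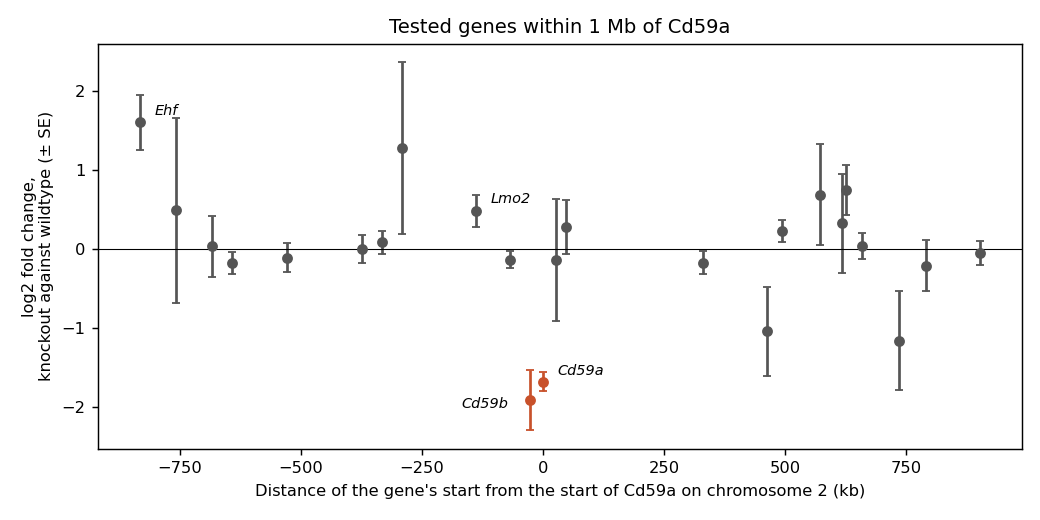
The log2 fold change of knockout against wildtype nerve (y axis, with its standard error) for Cd59a and the 23 other genes tested within 1 Mb, by distance of the gene's start from the start of Cd59a (x axis, kb). Cd59a and Cd59b (orange) are the lowest points, and the genes on either side lie about the zero line with both signs.

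Each other inhibitor was then examined for whether it followed Cd59a. Of 14 inhibitors other than Cd59a, 12 could be tested, and none passed in edgeR (against 0.138% of all genes). Of the 12, 1 (Cd59b) had an unadjusted edgeR p under 0.05 (8.33%, against 5.20% of all genes). The same 1 passed in DESeq2 (against 1.36% of all genes). Fold changes of the 12 were below 0 for 8 (66.7%, against 51.1% of all genes) and above 0 for 4. Their median was −0.11 on the log2 scale.

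Cd55 encodes decay-accelerating factor, which takes apart the C3 convertases. It was at 25.7, 23.8 and 18.3 CPM in wildtype libraries, against 24.1, 20.8 and 20.6 CPM in knockout libraries, with full overlap (log2 fold change −0.05, SE 0.17). Cr1l encodes Crry, the widely expressed rodent inhibitor of the C3 step. Its libraries overlapped as well, at 24.2, 25.7 and 32.3 CPM in wildtype nerve, compared with 26.9, 27.7 and 27.9 CPM in knockout nerve (log2 fold change 0.0047, SE 0.15). Cd46, a cofactor for the cleavage of C3b that mice express mainly in testis, was low in all libraries (2.25 to 2.74 CPM in wildtype, 1.76 to 2.82 CPM in knockout nerve; log2 fold change −0.20, SE 0.29). Of the Cd55 transcript, 10.7% of 50-base stretches also occur in its neighbour Cd55b, listed in the table as Daf2, which had at most 10 counts in a library.

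Susd4, a sushi-domain inhibitor expressed in brain, was the only membrane inhibitor with a sizeable positive fold change. It was at 144, 117 and 88.7 CPM in wildtype libraries, against 165, 140 and 133 CPM in knockout libraries, with wildtype replicate 1 inside the knockout range (log2 fold change 0.33, SE 0.20, edgeR adjusted p = 1.00). Csmd1, Csmd2 and Csmd3 encode very large CUB and sushi proteins of neurons and glia that limit C3 deposition. They differed within genotypes more than between them. Csmd1 was at 73.5, 33.4 and 38.4 CPM in wildtype nerve, compared with 73.3, 31.4 and 34.4 CPM in knockout nerve. In the same order, Csmd2 was at 27.6, 13.9 and 9.86 CPM, and at 24.8, 8.48 and 8.78 CPM. Csmd3 was at 2.68, 0.935 and 0.433 CPM in wildtype, and in knockout libraries at 3.52, 0.520 and 0.383 CPM. All 3 were highest in replicate 1 of both genotypes. Neuron markers were also highest within each genotype in replicate 1 (10190 CPM of 5117 to 10190, and 9223 CPM of 8620 to 9223), and their part in this was not tested.

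Among soluble inhibitors, Serping1, the C1 inhibitor that blocks C1r, C1s and MASP proteases, was at 134, 156 and 108 CPM in wildtype libraries, against 124, 122 and 110 CPM in knockout libraries (log2 fold change −0.16, SE 0.17). Clu encodes clusterin, a secreted chaperone that also binds the terminal complex. It stood at 834, 1107 and 2164 CPM in wildtype nerve, compared with 1036, 1417 and 1225 CPM in knockout nerve, wildtype replicate 3 lying above the rest (−0.16, SE 0.37). The same library had the highest sum of astrocyte markers (4623 CPM against 1438 to 2651 in the others). The part of astrocytes in the Clu level was not tested. Cfi, the protease factor I, was low at 1.28, 0.857 and 3.30 CPM in wildtype libraries, against 1.16, 0.249 and 0.360 CPM in knockout libraries. Its fold change of −1.62 came with a wide error (SE 0.76), the groups overlapped, and it ranged from −2.57 to −0.87 when 1 library was left out. C1qbp, a C1q-binding protein found mostly in mitochondria, was at 53.4, 66.0 and 46.1 CPM in wildtype, and in knockout libraries at 43.8, 69.1 and 73.8 CPM (0.17, SE 0.24). C4bp, the cofactor for C4b cleavage, had 7 counts over the wildtype and 4 over the knockout libraries.

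**Figure D3:**
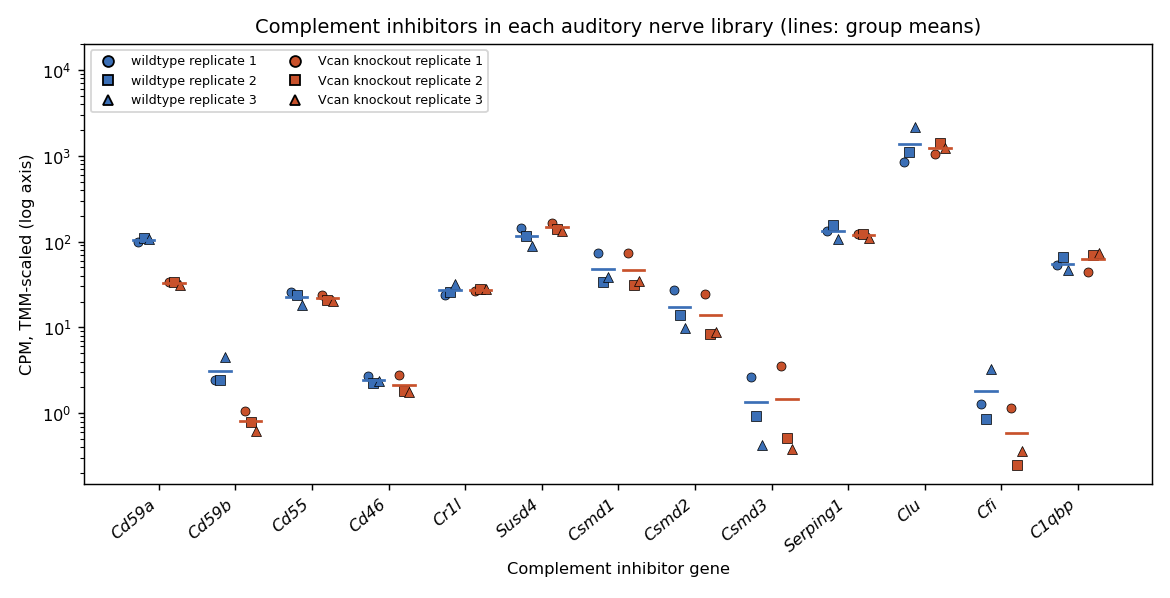
The level of 13 inhibitor genes in each library (y axis, TMM-scaled CPM on a log axis), wildtype in blue and Vcan knockout in orange, with a marker shape for each replicate and a line at each group mean. Cd59a (31.4 to 33.7 CPM in knockout against 98.4 to 111 CPM in wildtype nerve) and Cd59b separate by genotype, while replicate 1 stands highest within both genotypes for the 3 Csmd genes.

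The fall of Cd59a was compared with each other inhibitor on the log2 ratio of the 2 genes in each library. Cd59a alone already separated the genotypes, so its ratio to any gene of steady level does so as well. The ratios thus describe how each inhibitor stood beside Cd59a, and add no support to its fall. In this design of 3 against 3 an exact permutation test cannot go below p = 0.10. For 8 of the 12 inhibitors (Cd55, Cd46, Cr1l, Serping1, Clu, Csmd1, Susd4 and C1qbp) all knockout ratios lay below all wildtype ratios, with the smallest p the test allows (exact, 2-sided, p = 0.10, 0.15 after Benjamini-Hochberg adjustment over the 12). The shift in the mean log2 ratio was −1.64 for Cd55, −1.70 for Cr1l, −1.45 for Cd46, −1.54 for Serping1 and −2.03 for Susd4. For Cd55 the ratio was 1.94, 2.22 and 2.54 in wildtype and 0.47, 0.69 and 0.61 in knockout libraries. The ratios of Csmd2 and Csmd3 shifted by −1.34 and −1.48 but overlapped between the genotypes (exact p = 0.20 and 0.40). Only for Cd59b and Cfi did the mean ratio stay near its wildtype value (shifts of 0.18 and −0.03, exact p = 0.60 and 0.90), and for Cfi the ratio varied by about as much within a genotype (SD 1.00 and 1.10).

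**Figure D4:**
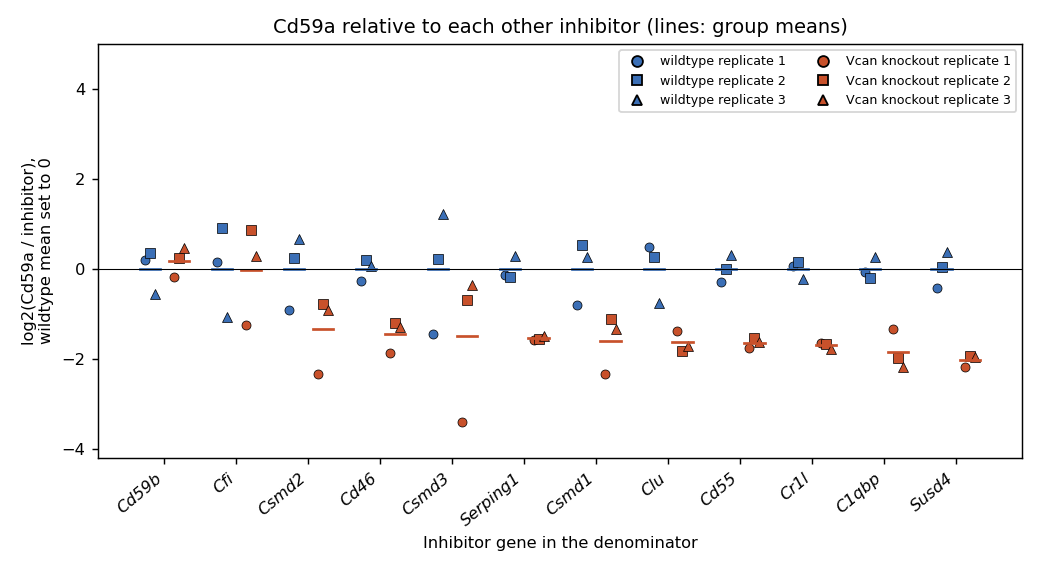
The log2 ratio of Cd59a to each of 12 other inhibitors in each library (y axis, with the wildtype mean of each pair set to 0), wildtype in blue and knockout in orange, lines at group means. The knockout points lie apart from and below the wildtype points for 8 inhibitors, and about the wildtype mean for Cd59b (shift 0.18) and Cfi (−0.03).

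Levels of different genes were set side by side per kilobase of merged exon (CPM per kb), which understates genes with long rarely used exons. In wildtype nerve Clu stood highest (398 ± 204 CPM per kb, SD, n = 3), followed by Cd59a (58.2 ± 3.56) and Serping1 (56.9 ± 10.4), which did not differ beyond their spread, then Susd4 (30.2 ± 7.12) and C1qbp (19.5 ± 3.56). Cd55 (4.66 ± 0.797), Cr1l (2.65 ± 0.417), Csmd1 (2.54 ± 1.15) and Cd59b (2.40 ± 0.903) came next, the last 3 within each other's spread. In knockout nerve Cd59a, at 18.1 ± 0.683 CPM per kb, lay below Serping1 (51.0 ± 3.26) and Susd4 (37.9 ± 4.33), and beside C1qbp (22.0 ± 5.71), within its spread. It was still above Cd55 (4.50 ± 0.405).

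C1q is the recognition protein of the classical pathway, built from the A, B and C chains encoded by C1qa, C1qb and C1qc. These lie together on chromosome 4, from 136880126 (C1qb) to 136898844 (C1qa). All 3 had lower mean levels in knockout nerve, by 1.31 to 1.41-fold, and none passed in edgeR or DESeq2. C1qa was at 28.5, 33.3 and 36.2 CPM in wildtype nerve, compared with 22.1, 29.2 and 23.4 CPM in knockout nerve, with knockout replicate 2 above wildtype replicate 1 (log2 fold change −0.39, SE 0.16, edgeR adjusted p = 0.962). C1qb was at 30.5, 39.5 and 38.1 CPM in wildtype, and in knockout libraries at 23.3, 28.5 and 25.0 CPM, with no overlap (−0.49, SE 0.16, edgeR adjusted p = 0.70). C1qc was at 22.8, 24.5 and 30.7 CPM in wildtype, and in knockout libraries at 21.3, 19.03 and 16.5 CPM, with no overlap (−0.46, SE 0.18, edgeR adjusted p = 0.875). The 3 genes kept a negative fold change without each library in turn (−0.60 to −0.31).

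Of 19 macrophage and microglia markers 13 were lower and 6 higher, around a median of −0.255 on the log2 scale. None passed in edgeR and 1 in DESeq2, and all were above 1 CPM in some library. The groups did not overlap for 4 of the 19 (21.05%, against 10.35% of all genes), all 4 lower. The summed level of the 19 markers was 379 to 414 CPM in wildtype libraries, against 326 to 403 CPM in knockout libraries, which overlapped. The C1q sum alone did not overlap (81.8 to 105 CPM in wildtype, 64.85 to 76.7 CPM in knockout libraries). Divided by the marker sum, it was 0.216, 0.235 and 0.277 in wildtype and 0.201, 0.190 and 0.199 in knockout libraries, with no overlap. The shift was −0.30 on the log2 scale (exact permutation test, 2-sided, p = 0.10, the smallest possible). Since the C1q sum already separated the genotypes and the marker sum varied little, the ratio adds no support to the lower C1q level. The part of macrophage number in the C1q level was not tested.

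**Figure D5:**
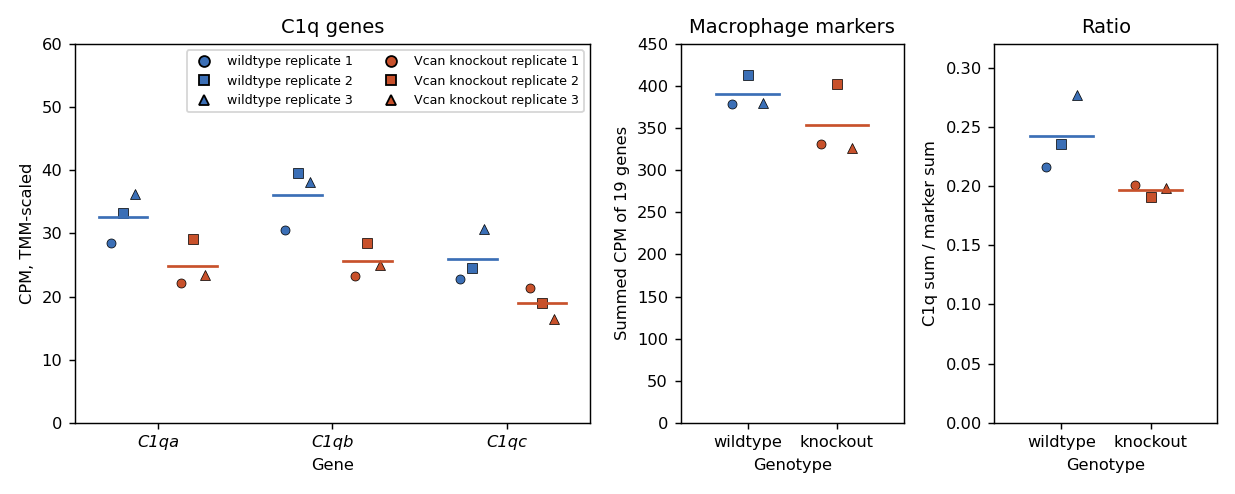
Left, the level of the C1q genes in each library (y axis, TMM-scaled CPM). Middle, the summed CPM of 19 macrophage and microglia markers. Right, the C1q sum divided by that marker sum. Blue is wildtype, orange is knockout, and lines are group means. The knockout ratios (0.190 to 0.201) lie below the wildtype ratios (0.216 to 0.277), while the marker sums overlap. The C1q sum alone already separates the genotypes, so the ratio is not a separate observation.

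The proteases and substrates of the classical pathway did not pass. C1ra encodes C1r, and was at 7.75 to 11.6 CPM in wildtype nerve, compared with 8.40 to 10.5 CPM in knockout nerve. Its count is uncertain, because 50.8% of its 50-base stretches occur in a gene at another locus, chiefly C1rb. C1rl, a C1r-like protease, was at 0.883 to 2.33 CPM over all libraries. C2, the protease of the classical C3 convertase, was at 26.9, 25.2 and 54.5 CPM in wildtype libraries, against 27.5, 23.9 and 18.9 CPM in knockout libraries, wildtype replicate 3 standing alone (log2 fold change −0.60, SE 0.33; −0.16 without it). C4b, which encodes the thioester protein C4, was at 63.8, 71.1 and 63.5 CPM in wildtype and spread more widely in knockout libraries, at 83.7, 54.2 and 33.9 CPM (−0.21, SE 0.31). Of its transcript, 35.2% of 50-base stretches are shared with C4a, and both genes counted together gave −0.21. C4b held 17136 counts over the wildtype libraries and C4a 477, so the joint count could only follow C4b.

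In the lectin pathway, Masp2 and Fcna were higher in knockout nerve, at low levels. Masp2 encodes MASP-2, the protease that cleaves C4 and C2 once a lectin has bound, and lies on chromosome 4 at 148594622 to 148615499. Its counts were 25, 30 and 1 in the wildtype and 190, 240 and 239 in the knockout libraries, or 0.300, 0.334 and 0.0117 CPM against 2.50, 2.60 and 2.77 CPM. The knockout libraries were close together and all above the wildtype libraries, and wildtype replicate 3 held only 1 count. The log2 fold change was 3.60 (SE 0.88), a 12.1-fold higher level, which did not pass in edgeR (adjusted p = 0.434) and passed in DESeq2 (adjusted p = 0.000201). Without wildtype replicate 3 it was 3.04 (edgeR adjusted p = 0.0624).

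The annotation places the Masp2 end over Tardbp, a gene for an RNA-binding protein, and whether reads were counted by strand is not given in the sources used here. Tardbp was at 248, 268 and 227 CPM in wildtype nerve, compared with 262, 268 and 267 CPM in knockout nerve (log2 fold change 0.10, SE 0.13). Of 39 other genes tested within 1 Mb of Masp2, 20 were higher and 19 lower. Of these 39, 1 passed in edgeR, the predicted gene Gm13157 (against 0.138% of all genes). In DESeq2 6 passed (against 1.36% of all genes), and 9 had an unadjusted edgeR p under 0.05 (against 5.20%). The genes near Masp2 were counted after its values were seen.

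Fcna encodes ficolin A, a lectin made by macrophages of liver and spleen (chromosome 2, 25624665 to 25635440). It was at 0.828, 0.968 and 0.526 CPM in wildtype libraries, against 3.06, 1.92 and 1.11 CPM in knockout libraries, with no overlap but a narrow gap (log2 fold change 1.39, SE 0.46, edgeR adjusted p = 0.764). Fcnb, the other mouse ficolin, made by neutrophils and their precursors, had 6, 7 and 7 counts in wildtype and 2, 51 and 58 counts in knockout libraries and was not tested. The summed level of 8 neutrophil markers was 19.2 to 54.5 CPM in wildtype nerve, compared with 73.8 to 144 CPM in knockout nerve. These sums did not overlap, although the groups overlapped for each of the 8 markers alone. Of the 8 markers 7 had positive fold changes, none passed in edgeR or DESeq2, and 1 had an unadjusted p under 0.05. Their part in the ficolin values was not tested. Masp1, the other MASP protease, was at 3.37 to 7.15 CPM in wildtype libraries, against 3.67 to 6.85 CPM in knockout libraries. Colec12, a collectin scavenger receptor, was at 130 to 167 CPM in wildtype, and in knockout libraries at 118 to 136 CPM. Colec11, a soluble collectin, was at 0.224 to 0.701 CPM over all libraries.

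The alternative pathway showed no change past the test. C3, the central protein on which all pathways meet, was at 13.3, 19.5 and 14.9 CPM in wildtype nerve, compared with 28.3, 15.6 and 4.14 CPM in knockout nerve. The knockout libraries thus held both the highest and the lowest C3 value, and the mean log2 fold change was 0.01 with a wide error (SE 0.60). Cfb, factor B, ordered the knockout libraries in the same way, at 8.69, 6.90 and 3.90 CPM, against 4.596, 4.14 and 5.76 CPM in wildtype (0.43, SE 0.33). C4b had the same order in the knockout libraries, replicate 1 highest and replicate 3 lowest. Cfp, properdin, which steadies the alternative convertase, was at 8.94 to 13.8 CPM in wildtype, and in knockout libraries at 12.3 to 14.6 CPM. Cfd, factor D or adipsin, had 12 counts over the wildtype and 7 over the knockout libraries, and 5 of 7 adipocyte markers, Adipoq and Plin1 among them, were under 1 CPM in every library.

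Most terminal components had few counts. C6 had 0 counts in every wildtype library, which allows up to 0.0115 CPM over the group (3 counts of the total, for counting error only), and 8, 1 and 0 counts in the knockout libraries. C8a, C8b and C9 had at most 5 counts in any library, and C8b had none. C7 was at 0.288 to 0.723 CPM, and Hc, the gene for C5, at 0.0702 to 0.520 CPM, with a fold change of 1.08 (SE 0.61) on the log2 scale between overlapping groups. C8g, the small C8 subunit of the lipocalin family, was at 4.05 to 5.38 CPM in wildtype libraries, against 3.52 to 4.71 CPM in knockout libraries. Its gene overlaps Fbxw5, which was at about the same level in both genotypes (103 ± 5.71 and 105 ± 7.78 CPM, SD, n = 3).

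Of the receptors, C5ar1 was lower. It encodes the C5a receptor of macrophages and neutrophils and lies on chromosome 7 at 16246743 to 16259540. It was at 1.93, 2.49 and 2.66 CPM in wildtype nerve, compared with 0.949, 1.495 and 1.18 CPM in knockout nerve, with no overlap (log2 fold change −0.96, SE 0.30, edgeR adjusted p = 0.683, DESeq2 adjusted p = 0.124). The neighbouring C5ar2, for the second C5a receptor, at 16234587 to 16244154, was at 1.01, 0.957 and 1.25 CPM in wildtype libraries, against 0.105, 0.336 and 0.116 CPM in knockout libraries. Its groups did not overlap either (−2.51, SE 0.55), and it passed in DESeq2 (adjusted p = 0.00183) but not in edgeR (adjusted p = 0.328). Of 33 other genes tested within 1 Mb of C5ar1, 17 were higher and 16 lower, and none passed in edgeR. Of these 33, 6 had an unadjusted edgeR p under 0.05 (against 5.20% of all genes): C5ar2, Dhx34, Kptn, Napa, Pnmal1 and Sae1. In DESeq2 1 passed, C5ar2 (against 1.36%). Divided by the macrophage marker sum, C5ar1 and C5ar2 differed between the genotypes by −0.83 and −2.58 on the log2 scale. An exact permutation test (2-sided) gave p = 0.10 for both, the smallest possible. Both genes already separated the genotypes, and the marker sum varied little (326 to 414 CPM over all libraries). These ratios thus add no support to the lower C5a receptor levels. The neutrophil marker sum given above was higher in knockout nerve, although the groups overlapped for each of its markers alone. The part of cell makeup in the C5a receptor levels was not tested.

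C3ar1, the C3a receptor, overlapped between genotypes (4.29 to 6.41 and 3.82 to 6.62 CPM). Cd93, an endothelial glycoprotein once described as a C1q receptor, was at 23.4, 23.4 and 24.4 CPM in wildtype nerve, compared with 21.6, 23.1 and 23.6 CPM in knockout nerve (log2 fold change −0.06, SE 0.12), although the summed endothelial markers were higher in knockout nerve (386 to 471 against 309 to 342 CPM, 5 of 8 genes higher, none called). Cr2, the complement receptor of B cells, was under 1 CPM in every library, with the B cell markers Ms4a1 and Pax5 also under 1 CPM. Vsig4, a C3b receptor of resident macrophages, had 1 count over the wildtype libraries and 30 of its 31 knockout counts in replicate 2.

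The remaining complement genes were taken from a list of 31, of which 29 were in the table and 18 could be tested. None passed in edgeR, and C5ar2 alone passed in DESeq2. An unadjusted p under 0.05 was found for 4 of the 18 (22.2%, against 5.20% of all genes), all lower, with Mbl2, C5ar2 and Itgam among them. The groups did not overlap for 6 of the 18 (33.3%, against 10.3% of all genes), 5 lower and 1 higher. Of the 18, 12 lay below 0 and 6 above, around a median of −0.13 on the log2 scale. Itgam, the alpha chain of complement receptor CR3 and also one of the macrophage markers, was at 7.83, 8.15 and 9.43 CPM in wildtype nerve, compared with 6.68, 6.01 and 4.42 CPM in knockout nerve (−0.57, SE 0.22). Itgb2, its partner chain, overlapped between genotypes (3.77 to 5.41 and 4.11 to 7.16 CPM). Mbl2, a mannose-binding lectin, was under 1 CPM in every library. Vtn, vitronectin, which also holds back the terminal pore, was at 111, 129 and 47.3 CPM in wildtype libraries, against 105, 71.6 and 49.5 CPM in knockout libraries, and its groups overlapped.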

How the data were processed

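RNA was measured in 6 auditory nerve libraries, 3 wildtype and 3 Vcan knockout, with total counts of 74530860 to 92513887. The authors deposited 1 table with raw counts per gene, made with HTSeq on mm10, per the submitters' processing notes. The same deposited table holds the authors' DESeq2 output: a mean normalised count (signal), the log2 fold change and its error, the test statistic, a score, and p-values. The sources used here give no aligner, no versions of these tools, and nothing on how strand or reads with several matches were treated. The table had 24067 entries, and 5 symbols listed on 2 entries with identical counts were joined, leaving 24062 symbols, of which 3878 had no counts.

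Counts were tested with edgeR 4.0.16 in R 4.3.3 (filterByExpr, TMM factors of 0.9639 to 1.018, robust quasi-likelihood fit) over 16722 genes, with Benjamini-Hochberg adjustment and a threshold of 0.05. DESeq2 1.42.0 was an alternative. The edgeR fit was tested on simulated data, and DESeq2 was not. The log2 ratios of Cd59a to other inhibitors used CPM with a prior count of 2 and an exact permutation test over the 6 libraries. Other alternatives were other scaling factors, no filter or a stricter filter, no robust estimation and a replicate block. Genes that share part of their sequence were also counted together, and each library was left out in turn. Coordinates came from RefSeq (GRCm38.p6, matched for 23710 symbols) and exon lengths and shared 50-base stretches from GENCODE vM21. Counting intervals and limits cover counting error only. Libraries of a genotype differed beyond sampling noise and were kept as 3 replicates. Replicate numbers did not pair the libraries.

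Every listed complement gene is accounted for, and the genes outside the list came from a list of other complement genes and from cell type markers. The members and lists were chosen with earlier results of these data known. The joint count of C1ra with C1rb was added after the data were seen (log2 fold change 0.06, as for C1ra alone). It could only follow C1ra, with 2354 counts over the wildtype libraries against 37 for C1rb. Some genes of these lists are not reported here.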

Additional observations from a re-analysis of the deposited data

How the results depend on the processing

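Of the 35 tested genes, 21 kept the sign of their fold change under each alternative run and 14 did not. DESeq2 called 252 genes in place of 23, with 3 complement genes in place of 1, 1 other inhibitor in place of 0 and 1 other pathway gene in place of 0. With 1 library left out, 3 to 14 genes were called, with 0 to 1 complement genes, and the median of the complement genes ranged from −0.30 to −0.084. The Cd59a fold change then ranged from −1.73 to −1.64. The replicate numbers did not pair the libraries, since deviations of same-numbered libraries correlated at 0.426, 0.216 and −0.151. A fit with the replicate block called 3 genes and 0 complement genes, with Cd59a at −1.68 (edgeR adjusted p = 0.0734), and moved C3 to −0.35 and Csmd3 to −0.20. Without a filter on low counts Cr1l was at −0.0059, and with a prior count of 0.5 the ratio of Cd59a to Cfi shifted by 0.012. Genes that changed sign when 1 library was left out ranged as follows on the log2 scale: C1ra from −0.040 to 0.27, C1rl from −0.74 to 0.021, C4b from −0.59 to 0.056, Masp1 from −0.39 to 0.19, C3 from −0.69 to 0.46, Cfp from −0.0022 to 0.29, C3ar1 from −0.33 to 0.074, Cr2 from −0.30 to 0.98, Cd55 from −0.19 to 0.054, Cr1l from −0.078 to 0.13, Csmd1 from −0.56 to 0.37, Csmd2 from −0.98 to 0.24, Csmd3 from −1.57 to 1.10 and Clu from −0.42 to 0.33. The cause was not tested. Other scaling factors moved the median of all genes by −0.0015 and 0.0097. Genes under about 1 CPM rest on few counts, so differences in C6, C4bp, Cfd and Vsig4 were not detectable at this depth.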
